A study of Danio rerio with 14 samples.

Results

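Genes of the cell cycle and of DNA replication were followed in the pineal gland of adult zebrafish across a day. A gene was taken when its single symbol in the platform annotation starts with mcm, cdk, ccn, cdc, orc, pcna, rfc, rpa or with pol followed by a, d or e, apart from polr symbols and ccn followed by a digit, and each gene was read from its probe set with the highest mean. The rule found 106 genes, on 131 probe sets, among the 8792 genes that the array names, and 18 of the 106 had several probe sets. The rule goes by name alone, so beside the genes that copy DNA and divide cells it also takes 15 genes of transcription and RNA. A last role of 23 genes holds those of postmitotic cells, atypical cyclins or kinases, signalling genes and any that no other role covers. All groups were adult Tg(aanat2:EGFP)Y8 fish of 3 to 6 months, males and females, in which the aanat2 promoter drives EGFP in the gland, and the glands were dissected under a fluorescence microscope. All fish were raised at 28 °C with lights on for 12 h and off for 12 h; the LD group stayed in that cycle, and the DD group was in constant darkness during the cycle of collection. Each of the 14 arrays, 7 in each group, held the pooled RNA of 12 glands collected at zeitgeber time (ZT, hours after lights on in LD) 2, 6, 10, 14, 18 or 22, and a further collection called ZT2b in each group, which the labels do not explain, was used as ZT2. A time and condition had 1 pool, apart from ZT2, so the error behind a p-value is the scatter of single pools about the fit.

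Before a cell divides, the origin recognition complex (orc genes) and cdc6 load the ring-shaped MCM helicase on DNA, and cdc7 and cdc45 help to start it. Polymerases alpha, delta and epsilon then copy the strands, held on by the clamp pcna, which the clamp loader (rfc genes) closes around DNA, while replication protein A (rpa genes) covers single strands. Cyclins and cyclin-dependent kinases time these steps, cyclin B with cdk1 starts mitosis, and the anaphase-promoting complex with its activator cdc20 ends it. Most cells of an adult pineal gland are photoreceptor-like cells that have left the cycle, and in zebrafish cells that do divide, the circadian clock is known to time both S phase and mitosis.

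The deposited values are MAS5 signal intensities on a linear scale. Probe sets with a mean signal above 29.2, the 40th percentile, were tested on the scale log2(signal + 14.9) with limma, and a gene is called where its p, adjusted over all 9299 probe sets tested, is under 0.05. Of the 106 genes 72 were above this filter (67.9%), against 6117 of all named genes (69.6%), and 34 were too dim to test. The dim genes lay mostly in the groups tied to dividing cells: 12 of 18 licensing and helicase genes and 7 of 11 cell cycle cyclins and kinases were below the filter, but 1 of 17 genes of polymerases, clamp and single-strand binding and 1 of 15 genes of transcription and RNA. In a gland of mixed cells, fewer cells of a type and less RNA per cell cannot be told apart. Probe sets of the same gene could also differ in mean signal, as for cdk11b (294.9 and 33.5) and cdc37l1 (294.9 and 42.4). Those of ccnd1 were close (181.7 and 164.1). A dim signal therefore need not mean little RNA, and how far it does was not tested.

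All 6 of the pineal photoreceptor markers on the array, among them aanat2, exorh and crx, were above the filter. Their summed signal was 28210 to 50839 in LD and 28718 to 40825 in DD, and in LD the sums of ZT14, ZT18 and ZT22 were the 3 highest. In LD aanat2 read 3193 to 7072 in the light phase and 11301 to 12482 in the dark phase, and tph1a 2382 to 4296 and 7178 to 9451. crx did not rise in the dark phase, with 1333 to 1735 and 976 to 1434. Blood markers, of which 6 of 7 were above the filter (hbae3 was not), summed to between 7244 and 12353 in LD, with a median of 7769, and to between 9340 and 18510 in DD, with a median of 14467. Leukocyte markers, 7 of 9 (mpx and csf1ra were below), summed to between 2517 and 4553 in LD, with a median of 3976, and to between 3144 and 7743 in DD, with a median of 5275. The blood and leukocyte sums moved with the light condition, with overlap, and their part in the differences given below was not tested. Most of each blood sum was hbaa1 (15262 of 18510 at ZT10 in DD), and most of each leukocyte sum cd74a (4408.5 of 7743 at ZT18 in DD). Such a sum mainly reads its brightest genes and is not an amount of a cell type. The sums of LD and DD overlapped for glia and progenitors (7 of 7 above the filter, 5337 to 7383 in LD and 5800 to 8048 in DD), skin (5 of 6, 1912 to 3885 and 1176 to 4253), connective tissue (4 of 6, 765 to 1246 and 622 to 1022) and vessels (1 of 2, 237 to 499 and 373 to 485). A sum can hide single markers: of the 43 on the array, s100b of glia (194.3 to 423.9 in LD, 514.9 to 869.5 in DD) and hbba2 of blood lay lower in LD and otx5 of photoreceptors higher, each without overlap, and slc1a2b of glia ran higher in LD (2280 to 3879 against 1108 to 2936). How many of all probe sets had LD and DD values without overlap was not counted, for these markers or for the genes below. The DD array of ZT10 stood apart from the others: its mean correlation with the arrays of its condition was 0.938 against 0.956 to 0.965 elsewhere, and its poly-A spike controls had a geometric mean of 839 against 59.9 to 150.

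A 24-h rhythm was called for 4 of the 72 genes tested, 5.56%, against 4.86% of all probe sets tested. The 4 were cdkal1, ccng2, poldip2 and cdc37, and none of them is a licensing factor, a polymerase subunit, a cell cycle cyclin or a kinase. LD and DD differed, with time of collection as a block, for 14 of the 72, 19.4%, against 20.6% of all probe sets. 7 of these were higher in LD and 7 lower, against 10% and 10.6% of all probe sets, and the median difference was 0.06 on the log2 scale over the 72 genes and -0.01 over all probe sets. Both shares were near the background of this series. By role, the LD against DD calls were 0 of 6 in licensing and helicase, 3 of 16 in polymerases, clamp and single-strand binding, 2 of 4 in cyclins and kinases, 1 of 4 in inhibitors, 2 of 10 in mitosis and degradation, 3 of 14 in transcription and RNA, and 3 of 18 in the last role. Without the DD array of ZT10 the counts were 5 rhythms and 12 differences. Those of all 9299 probe sets were then 571 and 2106, against 452 and 1915 with it.

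Licensing and helicase genes above the filter showed no call in any comparison: 6 of 18 were tested, and their LD minus DD differences ran from -0.04 for orc2, a subunit of the origin recognition complex, to 0.29 for orc3, another subunit. The helicase subunit mcm2 had in LD the values 48.7 (ZT2), 63.0 (ZT2b), 105.8 (ZT6), 69.8 (ZT10), 44.3 (ZT14), 31.0 (ZT18) and 36.1 (ZT22). In DD it had 103.2 at ZT2 and 32.3 at ZT2b, and between 26.0 (ZT6) and 55.4 (ZT18) at the later times, with a median of 42.9 over the 7 pools. The highest value thus fell at ZT6 in LD and at ZT2 in DD, and the ZT2b pool of DD did not share the height of its ZT2 pool. The summed skin markers were also highest of all arrays in the DD pool of ZT2, 4253, against 1416 in the DD pool of ZT2b. So were those of glia and progenitors, 8048 against 7375. The leukocyte sum of that ZT2 pool, 6145 against 3144, was second only to that of ZT18 in DD. Whether these sums bear on the replication genes that were highest in that ZT2 pool was not tested. The fitted rhythm of mcm2, given here and below as the log2 distance between trough and peak, was 1.27 ± 0.40 (SE) in LD (adjusted p = 0.201) and 0.66 ± 0.40 in DD (adjusted p = 0.710), and the difference of these rhythms was not called either (adjusted p = 0.629).

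The subunits mcm4 and mcm5, both below the filter, had their highest values in the same pools as mcm2, 50.4 and 53.0 at ZT6 in LD and 40.1 and 51.9 at ZT2 in DD. Both were low at ZT18 in LD, at 4.4 and 1.6. The subunit mcm3 was highest at ZT2b in LD with 51.1, before 43.7 at ZT6, and at ZT2 in DD with 59.2. Its second probe set, below the filter, did not share this. It read 7.7 at ZT2 in DD and was highest at ZT6 in DD (29.0) and at ZT10 in LD (25.3). Of the helicase subunits above the filter, mcm7 had 113.2 to 212.3 with a median of 161.2 in LD and 129.4 to 196.3 with a median of 144.1 in DD, a log2 difference of 0.15 ± 0.11 with a 95% interval of -0.09 to 0.39. The remaining subunit, mcm6, stayed between 1.9 and 26.1 on all arrays. These subunits were not tested as a group.

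**Figure D1:**
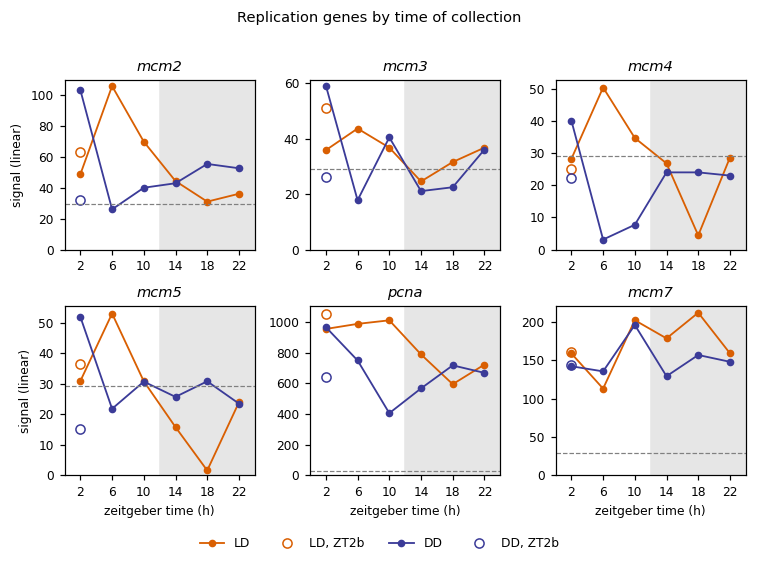
Signal (linear) of 6 replication genes by zeitgeber time in hours, 1 point per pool; filled points joined by lines are the 6 times, open circles the ZT2b pools, grey the night, and the dashed line the filter. The highest mcm2, mcm4 and mcm5 values stand at ZT6 in LD (105.8, 50.4 and 53.0) and at ZT2 in DD (103.2, 40.1 and 51.9), while pcna is high through the LD day and mcm7 is highest at ZT18 in LD (212.3) and at ZT10 in DD (196.3).

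Among the origin recognition subunits, orc4 was higher in LD at 7 of 7 collections, with means of 37.1 ± 8.8 (SD, n = 7, as for all means below) in LD and 29.6 ± 8.0 in DD, but its difference of 0.22 ± 0.14 was not called (adjusted p = 0.274). orc1, orc5 and orc6 were dim, as were the helicase activators cdc7 and cdc45. The loading factor cdc6 was below the filter on every array, yet its groups did not overlap: it read 1.2 to 4.6 with a median of 2.9 in LD and 6.9 to 24.1 with a median of 20.3 in DD. In a fit without the filter cdc6 was lower in LD by a difference of -0.90 ± 0.15 (adjusted p = 0.00264). It was the 1 call among the 34 dim genes. All 15501 probe sets of that fit, the bright ones included, had 1603 calls. Neither the calls nor the sets without overlap were counted among dim probe sets alone. Its LD signals lie well under the constant of 14.9 added before the logarithm, so the size of this difference depends on that constant.

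Of the 16 genes tested among polymerases, clamp and single-strand binding, pole3 and pole4 rose and rfc5 fell in LD. pole3 and pole4, the small histone-fold subunits of polymerase epsilon, moved the same way. pole3 had 73.5 to 145.0 with a median of 102.8 in LD and 53.6 to 78.7 with a median of 76.8 in DD, a difference of 0.39 ± 0.12 (adjusted p = 0.0319) that was positive at 6 of 7 collections. pole4 had 130.1 to 235.9 with a median of 185.4 in LD and 65.1 to 170.4 with a median of 144.0 in DD, a difference of 0.47 ± 0.14 (adjusted p = 0.0347), again at 6 of 7. The groups of both genes overlapped, and for both the DD array of ZT10 held the lowest DD value. Without that array pole4 lost its call (adjusted p = 0.0658) and pole3 kept it. The call of pole3 was lost without either array of ZT6, ZT14, ZT18, ZT22 or ZT2b (adjusted p up to 0.0923), and that of pole4 without either array of ZT6, ZT10, ZT14 or ZT22 or the DD array of ZT2b (up to 0.1).

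The clamp loader subunit rfc5 had 24.5 to 46.5 with a median of 31.6 in LD and 36.2 to 92.4 with a median of 47.2 in DD, and fell by 0.56 ± 0.17 on the log2 scale in LD (adjusted p = 0.0346). It was lower in LD at all 7 collections, and its call was lost without either array of ZT6, ZT10 or ZT14 or the LD array of ZT2b (adjusted p up to 0.1). The DD array of ZT10 held its highest value, and without it the adjusted p was 0.0747. The other loader subunits tested did not follow: rfc1 differed by -0.13, rfc3 by 0.34 and rfc4 by 0.15, none of them called. rpa2, the middle subunit of replication protein A, had means of 37.7 ± 8.2 in LD and 60.3 ± 15.8 in DD and just missed the threshold with a difference of -0.50 ± 0.17 (adjusted p = 0.0573). The large subunit rpa1 differed by -0.01 with a 95% interval of -0.26 to 0.23, and the small subunit rpa3 by -0.02 with an interval of -0.40 to 0.36.

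The clamp pcna had 594.2 to 1054.8 with a median of 954.5 in LD and 405.3 to 966.1 with a median of 668.1 in DD. In LD the 4 pools of the light phase lay between 954.5 and 1054.8 and the 3 of the dark phase between 594.2 and 788.4, whereas in DD the ZT2 pool, at 966.1, stood above the other 6, of which the highest was 749.0. The rhythm of pcna in LD was not called (adjusted p = 0.292), nor was its LD minus DD difference of 0.38 ± 0.16 (95% interval 0.03 to 0.74, adjusted p = 0.114). The catalytic subunits pola1 of polymerase alpha and pold1 of polymerase delta differed by -0.15 and 0.19, without a call. poldip2, which binds a subunit of polymerase delta and also acts in mitochondria, was the only gene in this role with a called rhythm and is described with the rhythmic genes.

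Among the cyclins and kinases of the cell cycle, 2 of the 4 genes tested, cdk2 and ccnb1, were lower in LD, against 10.6% of all probe sets. The other 7 of the 11 genes in this role were too dim to test. cdk2 encodes the kinase that acts with cyclins E and A at the start of and during S phase. Its signal was 32.3 to 73.2 with a median of 49.1 in LD and 62.9 to 118.4 with a median of 77.8 in DD, and it was lower in LD at all 7 collections. The fall was 0.54 ± 0.13 on the log2 scale (adjusted p = 0.0116), or 52.1 ± 14.3 against 81.9 ± 17.8 in mean signal, a DD to LD ratio of 1.57. This call held without each array in turn (adjusted p up to 0.0354) and was lost without both ZT2b arrays (0.0565).

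ccnb1, cyclin B1, had 15.0 to 41.8 with a median of 20.5 in LD and 22.4 to 74.0 with a median of 35.0 in DD. It too was lower in LD at all 7 collections, although the groups overlapped, by 0.51 ± 0.14 (adjusted p = 0.0207). Its LD mean of 23.0 lay below the filter, so it was tested because of its DD values, and the call was lost without either array of ZT6, ZT18 or ZT22 (0.0505 to 0.0533). The G1 cyclin ccnd1 had differences of opposite sign, -0.22 ± 0.13 on its brighter probe set and 0.30 ± 0.13 on its second, neither of them called. ccnb3 differed by 0.21 ± 0.15 (adjusted p = 0.355). The kinase cdk1 and the cyclins ccna1, ccna2, ccnb1l, ccnb2, ccne1 and ccnf were dim, and without the filter none of them was called for LD against DD or for a rhythm over both conditions.

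The inhibitor cdkn1bb, of the p27 type, which blocks cyclin-dependent kinases in resting cells, was lower in LD on its brighter probe set. It read 150.9 to 278.0 with a median of 236.6 in LD and 269.3 to 342.2 with a median of 303.5 in DD, and fell by 0.44 ± 0.14 (adjusted p = 0.0398). Apart from the LD pool of ZT2, at 278.0, every LD value lay under every DD value. Its second probe set differed by 0.09 ± 0.14 in the other direction without a call, and the call of the first was lost without each array in turn other than both of ZT14 and the LD array of ZT2 (up to 0.0897). cdkn3 differed by 0.09, cdkn2aipnl by -0.01 and cdk2ap2 by -0.22, none called, and cdkn1ca was dim apart from 48.9 at ZT10 in LD.

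Of 10 genes tested among those of mitosis and protein degradation, cdc25b fell and cdc14b rose in LD. cdc25b encodes the phosphatase that switches on cyclin-dependent kinases before mitosis. It had 78.2 to 124.0 with a median of 106.0 in LD and 89.7 to 319.1 with a median of 153.5 in DD, and it was lower in LD at all 7 collections. The fall was 0.74 ± 0.17 (adjusted p = 0.0107), a DD to LD ratio of mean signals of 1.87. Its second probe set gave a difference of -0.95 ± 0.23 (adjusted p = 0.0116), and the call held without each array in turn (up to 0.0328). The DD value of ZT10 was the highest on both probe sets, 319.1 and 312.7.

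cdc14b, a phosphatase of mitotic exit and of the response to DNA damage, had 115.0 to 184.2 with a median of 161.1 in LD and 82.2 to 127.7 with a median of 102.1 in DD. It rose by 0.51 ± 0.13 on the log2 scale (adjusted p = 0.0187) at 6 of 7 collections, and lost its call only without an array of ZT18 (0.0507) or both ZT2b arrays (0.0663). cdc27, a subunit of the anaphase-promoting complex, was near the threshold with 43.5 ± 15.2 in LD and 22.9 ± 12.1 in DD, a difference of 0.66 ± 0.23 (adjusted p = 0.0553), and with its DD mean below the filter it was tested because of its LD values. Its fellow subunits cdc23 and cdc26 differed by 0.25 and 0.01. The ubiquitin-conjugating genes cdc34a and cdc34b differed by 0.20 and 0.29, without a call.

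**Figure D2:**
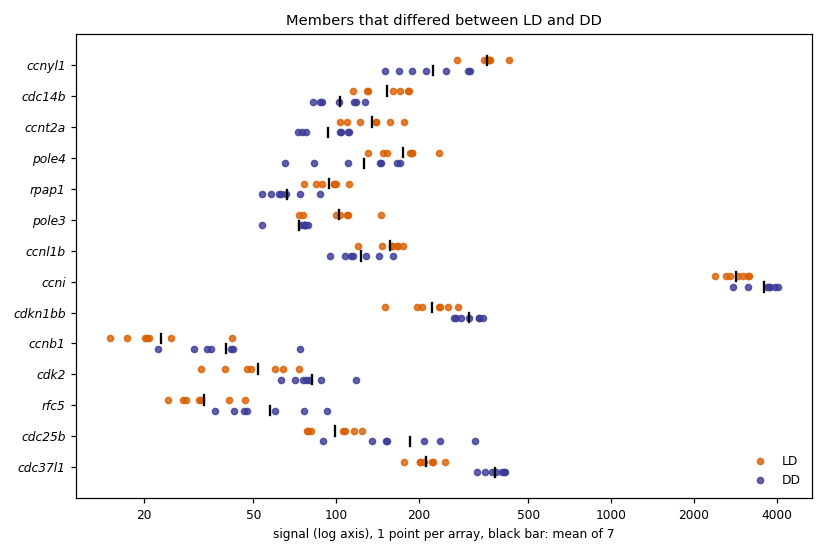
Signal (log axis) of the 14 genes whose LD and DD arrays differed, 1 point per array, LD above and DD below in each row, with a black bar at the mean of 7. Of these 14 only cdc37l1 shows no overlap, with LD at 176.7 to 248.1 and DD at 326.5 to 409.4, and how many of all probe sets show none was not counted.

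A few genes of mitosis had their highest signal at ZT18, in the night, in both conditions. ccnb1 read 41.8 at ZT18 in LD, where the next value was 25.1, and 74.0 at ZT18 in DD, where the next was 42.0. cdc20, which activates the anaphase-promoting complex, read 37.7 and 30.2 at ZT18, against at most 21.1 at other times in LD and 27.7 in DD. cdca8, a subunit of the chromosomal passenger complex, read 35.7 and 55.9 at ZT18, in DD close to the 53.4 of ZT10. These were the 3 of all 106 genes with their highest pool at ZT18 in both conditions, where 14 of the 106 had it there in LD and 22 in DD. How many of all probe sets had it there in both was not counted, so the 3 are not shown to be an excess. More of the 106 were highest at ZT10, 29 in LD and 31 in DD. The arrays of ZT18 had a median signal of 46.9 in LD and 47.1 in DD. In both conditions this was second to the array of ZT10, with 49.1 and 50.8. Whether this bears on the dim genes was not tested. cdc20 and cdca8 were too dim for the filter.

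For other mitotic genes the peak was shared only in part. cdk1 was highest at ZT18 in LD, with 44.6, and second there in DD, with 47.6 after 51.7 at ZT10. cdca3, which promotes entry into mitosis, read 67.2 at ZT18 in DD, and in LD 32.2 at ZT18 and 32.5 at ZT22. ccna2 was highest at ZT18 in LD with 46.9, and ccnf in DD with 44.4. Of 11 mitotic genes (these, with ccnb2, ccnb3, cdca5 and cdca9), 5 had their highest value at ZT18 in LD and 5 in DD. The numbers for all 106 genes, these 11 included, were 14 and 22, and no count over all probe sets was made. The list of 11 was not among those set out for the tests, and it leaves out genes of mitosis such as cdc25b and cdc27. Its counts are therefore no test of the pattern. Of the 16 genes in the role of mitosis and degradation, 5 were highest at ZT18 in LD and 5 in DD.

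The ZT18 pattern was noticed in these values, and a contrast of ZT18 with the other times was added afterwards. It called none of the 72 genes and 3 of all 9299 probe sets, 0.0323%, with limma, where 3 of the 72 and 467 of all probe sets had an unadjusted p under 0.05. The same contrast for ZT2 called 2 of the 72 against 1.73% of all probe sets, cdkal1, higher by 0.74 ± 0.15 (adjusted p = 0.0211), and ccng2, lower by a difference of -0.80 ± 0.19 (adjusted p = 0.0497). For the other 4 times it called none of the 72, with 3 to 13 at an unadjusted p under 0.05. Of all 9299 probe sets it then called 2 (ZT6), 5 (ZT10), 24 (ZT14) and 10 (ZT22), with 583, 1645, 650 and 712 at an unadjusted p under 0.05. The 13 were those of ZT10, where the 1645 became 854 without the DD array of ZT10. ccnb1 was higher at ZT18 by 0.82 ± 0.20 (adjusted p = 0.316), and this size was 0.90 without the LD array of ZT18 and 0.74 without the DD array. The 24-h rhythm of ccnb1 measured 0.69 ± 0.25 with a fitted peak at ZT19.8 (adjusted p = 0.254), and without the filter those of cdca3 and cdk1 measured 1.34 ± 0.34 and 1.14 ± 0.34 with peaks at ZT18.5 and ZT16.5 (adjusted p = 0.0947 and 0.191). With 1 pool per condition at ZT18, the time and the pool cannot be told apart within a condition. The summed leukocyte markers were highest of all arrays at ZT18 in DD, 7743, and in LD their ZT18 sum of 3976 was the median of the 7 arrays. Whether leukocytes bear on the signals of the mitotic genes was not tested.

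**Figure D3:**
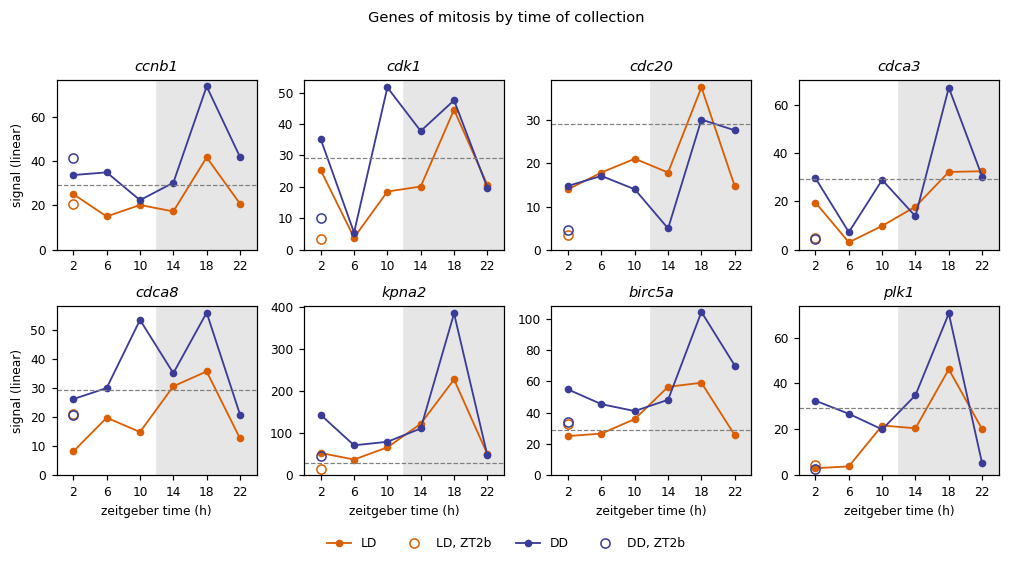
Signal (linear) of 8 genes of mitosis, chosen after their values were seen, by zeitgeber time in hours, 1 point per pool; filled points joined by lines are the 6 times, open circles the ZT2b pools, grey the night, and the dashed line the filter. ccnb1, cdc20, cdca8, kpna2, birc5a and plk1 are highest at ZT18 in both conditions, and the DD pool of ZT10 is high for cdk1 (51.7) and cdca8 (53.4).

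Genes of the same pathway outside the naming rule came from a list of 102 symbols, of which 77 were on the array and 51 above the filter. How many of all probe sets had their highest value at ZT18 was not counted, so an excess at that time is not shown. Of the 77 listed genes 15 in LD and 22 in DD had their highest value at ZT10. For ZT18 the numbers were 19 in LD and 18 in DD, and 9 genes were highest there in both. They included 4 mitotic genes, chosen after their values were seen and plk1 of them below the filter: the nuclear import factor kpna2 read 228 in LD and 385 in DD, the survivin gene birc5a 59.2 and 104.5, the mitotic kinase plk1 46.2 and 70.5, and the spindle checkpoint gene mad2l1 37.1 and 66.8, each the highest of its 7 arrays. Other mitotic genes of the list did not share this: bub1bb, bub3, ncapg and ncaph were highest at other times in both conditions, and ttk, aurka and top2a at ZT18 in LD but not in DD. In the ZT18 contrast kpna2 was higher by 1.96 ± 0.36 (adjusted p = 0.0952) and birc5a by 0.76 ± 0.23 (adjusted p = 0.628), and no gene of the list was called. The list had 1 called rhythm, 1.96% of the 51 against 4.86% of all probe sets, of the condensin subunit smc4, which compacts chromosomes: it measured 1.15 ± 0.22, with a peak at ZT5.57 (adjusted p = 0.0102). smc4 read 106.5 at ZT6 and 39.3 at ZT18 in LD, and 120.5 at ZT2 and 29.6 at ZT22 in DD.

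LD and DD differed for 9 of the 51 listed genes, 6 higher in LD and 3 lower, or 17.6% against 20.6% of all probe sets. The flap endonuclease fen1, which trims Okazaki fragments and serves in base excision repair, had 101.6 to 155.3 with a median of 125.6 in LD and 45.5 to 87.4 with a median of 58.4 in DD, a rise of 0.89 ± 0.11 without overlap (adjusted p = 5.01e-04). The topoisomerase top2b, typical of postmitotic cells, rose by 0.72 ± 0.15, also without overlap. plk3, a kinase of stress responses, rose by 1.39 ± 0.22 and gadd45ga, a growth arrest and DNA damage gene, by 0.67 ± 0.19. hmgb2a rose by 1.29 ± 0.32 and the ribonucleotide reductase subunit rrm1 by 0.51 ± 0.16. For hmgb2a the DD array of ZT10, which stood apart, read 3.9, against a DD median of 92.7 and a DD maximum of 122.5. hmgb2a was higher in LD at 7 of 7 collections, but the size of its rise depends in part on that array. Whether the 9 calls of the list hold without single arrays was not tested. Lower in LD were tfdp1b, a partner of E2F factors, by 0.98 ± 0.16, gadd45ba by 0.65 ± 0.18, and cks1b, a small subunit of cyclin-dependent kinases, by 0.46 ± 0.14. The LD mean of cks1b, 27.3, lay below the filter, so it was tested because of its DD values. Of the classical proliferation genes on this list, mki67 was dim, and top2a, tested because of its DD values, differed by -0.56 ± 0.22 without a call (adjusted p = 0.0917).

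Genes of transcription and RNA carried no called rhythm in 14 tested, and 3 of them, ccnt2a, ccnl1b and rpap1, rose in LD, a share near the 20.6% of all probe sets. ccnt2a, a cyclin T partner of the elongation kinase cdk9, had 103.1 to 176.8 with a median of 139.5 in LD and 72.7 to 111.2 with a median of 103.6 in DD, and rose by 0.47 ± 0.13 (adjusted p = 0.0257) at 6 of 7 collections. ccnt1, the other cyclin T, rose by 0.59 ± 0.16 in the light phase (adjusted p = 0.0367) and over all times by 0.38 ± 0.13 without a call (adjusted p = 0.0549). cdk9 itself differed by -0.13 ± 0.12 (95% interval -0.38 to 0.13), and ccnt2b by 0.22 ± 0.15.

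ccnl1b, a cyclin L of pre-mRNA splicing, had 120.1 to 174.8 with a median of 160.1 in LD and 95.3 to 160.3 with a median of 115.0 in DD, a rise of 0.32 ± 0.11 (adjusted p = 0.0483). rpap1, an RNA polymerase II associated protein that the prefix rpa caught, had 76.1 to 110.9 with a median of 98.2 in LD and 53.5 to 87.1 with a median of 62.8 in DD, and rose by 0.43 ± 0.12 (adjusted p = 0.0212). rpap1 was higher in LD at 7 of 7 collections, ccnl1b at 6. The call of ccnl1b was lost without each array in turn other than those of ZT18 (up to 0.104), that of rpap1 without either array of ZT18 (0.0612 and 0.0624), and that of ccnt1 by day without each array other than those of ZT22 (up to 0.109). ccnt2a lost its call without either array of ZT6 or ZT14, the DD array of ZT2b or the LD array of ZT2 (up to 0.0723). The second probe set of cdk11b was called with a rise of 0.56 ± 0.17, while its brighter one differed by 0.08 ± 0.15. The kinases cdk7 and cdk8 and the factors ccnk, cdc5l and cdc73 were not called.

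The LD against DD calls with the smallest p, cdc37l1 and ccnyl1, belonged to genes with roles outside the division cycle. cdc37l1 is a relative of cdc37, a cochaperone of Hsp90 that serves kinases. It had 176.7 to 248.1 with a median of 209.4 in LD and 326.5 to 409.4 with a median of 381.7 in DD, and no value of one group reached the other. How many of all probe sets show such a gap was not counted. It fell by 0.79 ± 0.10 in LD (adjusted p = 5.07e-04), from 378 ± 32.0 to 212 ± 22.4 in mean signal, and on this probe set the call held under all alternatives tried. It was called in the light phase (a difference of -0.74 ± 0.14, adjusted p = 0.00823) and, as the single gene of the 72, in the night (-0.86 ± 0.16, adjusted p = 0.0227). On the second, dimmer probe set of cdc37l1 the call was lost, with a difference of -0.06 ± 0.15 (95% interval -0.38 to 0.26, adjusted p = 0.805), and so were the calls by day (adjusted p = 0.963) and by night (0.830).

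ccnyl1, a cyclin Y type gene that acts with kinases at the cell membrane, had 275.0 to 425.0 with a median of 358.5 in LD and 150.3 to 305.8 with a median of 211.3 in DD. It was higher in LD at 7 of 7 collections and rose by 0.65 ± 0.14 (adjusted p = 0.00605), and by 0.86 ± 0.16 in the light phase (adjusted p = 0.00972). The LD pool of ZT22, at 275.0, was the 1 LD value within the DD range. ccni, cyclin I, an atypical cyclin of postmitotic cells such as neurons and muscle, had 2386 to 3165 with a median of 2902 in LD and 2786 to 4058 with a median of 3750 in DD. It fell by 0.33 ± 0.09 (adjusted p = 0.0263) and lost the call without either array of ZT6, ZT14, ZT18, ZT22 or ZT2b (up to 0.0681). The kinase activator cdk5r2a of neurons differed by 0.33 ± 0.25 and cdc42, a small GTPase of cell shape, by 0.01 ± 0.13, neither called, and cdk5 was dim.

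The 4 called rhythms included 3 genes of this last role, cdkal1, ccng2 and cdc37, and poldip2. cdkal1, a tRNA-modifying enzyme named after a kinase regulator, had in LD the values 190.2 (ZT2), 162.5 (ZT2b), 161.5 (ZT6), 105.8 (ZT10), 62.0 (ZT14), 51.0 (ZT18) and 64.4 (ZT22). In DD it had 119.7, 90.9, 95.8, 83.4, 67.6, 48.8 and 57.5 in the same order. Both series were high early and lowest at ZT18, with the larger range in LD. The fitted rhythm was 1.31 ± 0.20, with a peak at ZT5.08 (adjusted p = 0.00232), and this call held under all alternatives tried. cdkal1 was also higher in LD in the light phase, by 0.58 ± 0.15 (adjusted p = 0.0354), a call that was lost without either array of ZT6, ZT14, ZT18 or ZT2b or the LD array of ZT2 (up to 0.116).

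ccng2, cyclin G2, an atypical cyclin linked to cell cycle arrest, had in LD the values 151.1 (ZT2), 108.2 (ZT2b), 174.0 (ZT6), 423.5 (ZT10), 471.4 (ZT14), 304.5 (ZT18) and 191.8 (ZT22), and in DD 174.4, 148.8, 216.5, 216.2, 278.3, 281.7 and 192.4. The high values stood around dusk, and in LD those of ZT10 and ZT14 exceeded every DD value. Its rhythm measured 1.25 ± 0.21 with a peak at ZT13.9 (adjusted p = 0.00424). The second probe set of ccng2 was called too, with 1.66 ± 0.28 and a peak at ZT13.6 (adjusted p = 0.00485). Only a test across 6 separate times in place of a 24-h wave ended the call (adjusted p = 0.132).

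poldip2 had in LD the values 177.1 (ZT2), 193.9 (ZT2b), 166.8 (ZT6), 114.8 (ZT10), 49.1 (ZT14), 89.0 (ZT18) and 174.3 (ZT22), and in DD 162.3, 155.0, 145.8, 145.6, 85.6, 115.7 and 104.6. The trough was at ZT14 in both conditions. Its rhythm measured 1.03 ± 0.21 with a peak at ZT3.07 (adjusted p = 0.0158), and the call was lost without the LD array of ZT14 (adjusted p = 0.0665), without both ZT2b arrays (0.0690) and in the test across 6 separate times (0.135). cdc37 had in LD 166.2, 250.6, 126.5, 79.8, 53.1, 155.9 and 122.3 and in DD 143.8, 101.3, 148.0, 74.3, 74.0, 69.0 and 115.1 in the same order. Its rhythm of 1.06 ± 0.23 peaked at ZT1.59 (adjusted p = 0.0287), but 6 arrays, those of ZT2 and ZT18 in DD and of ZT2, ZT2b, ZT10 and ZT14 in LD, each ended the call when left out (0.0507 to 0.152, the last the highest).

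**Figure D4:**
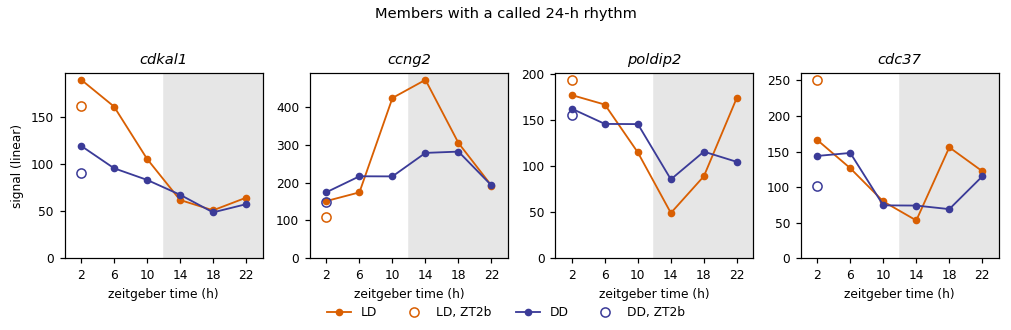
Signal (linear) of the 4 genes with a called 24-h rhythm by zeitgeber time in hours, 1 point per pool; filled points joined by lines are the 6 times, open circles the ZT2b pools, and grey marks the night. cdkal1 and poldip2 are high early in the day and ccng2 around ZT14. The range of each of the 4 is wider in LD than in DD, but no difference between the LD and DD rhythms was called.

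In LD alone the rhythms of ccng2 (1.81 ± 0.23), cdkal1 (1.71 ± 0.25) and poldip2 (1.47 ± 0.25) were called, 3 of 72 against 4.1% of all probe sets. The LD call of poldip2 was lost without the LD array of ZT14 (adjusted p = 0.161). In DD alone limma called none of the 72, against 0.645% of all probe sets, and 8 of the 72 and 1016 of all had an unadjusted p under 0.05. The smallest DD p-values were those of pole4 (1.17 ± 0.30, adjusted p = 0.212), rpa3 (0.97 ± 0.26, adjusted p = 0.234) and cdkal1 (0.91 ± 0.26, adjusted p = 0.281). In DD the lowest values of pole4 and rpa3 were those of ZT10, 65.1 and 45.0, on the array that stood apart.

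The difference between the LD and DD rhythms was called for none of the 72 genes and for 0% of all probe sets, although 7 of the 72 and 662 of all had an unadjusted p under 0.05. The smallest p-values belonged to rpa3, ccng2 and rfc4 (adjusted p = 0.571, 0.600 and 0.629). A rhythm called in LD and not in DD is therefore not shown to differ between the conditions. The difference of ccng2 rhythms measured 1.14 ± 0.32 and that of cdkal1 0.83 ± 0.35.

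With day and night taken apart, the light phase gave 5 calls of 72 against 9.23% of all probe sets: ccnyl1, ccnt1 and cdkal1 were higher in LD, and cdc37l1 and cdk2 (-0.65 ± 0.17, adjusted p = 0.0343) lower. The cdk2 call by day was lost without either array of ZT6 or ZT2b or the DD array of ZT2 (up to 0.106). Without both ZT2b arrays none of the 72 was called by day, and all 9299 probe sets had 83 calls against 858 with them. The night gave cdc37l1 alone, 1 of 72 against 2.93%, and this call was lost without any array of ZT14, ZT18 or ZT22 (0.0914 to 0.152). A difference between the day and night contrasts was called for none of the 72 and for 0% of all probe sets, with 1 of the 72, cdkal1, and 527 of all at an unadjusted p under 0.05. After cdkal1 (0.55 ± 0.23, adjusted p = 0.847), the smallest p-values were those of cdc42ep4a and rfc4 (adjusted p = 0.874 and 0.883). On the list of other pathway genes, with 11.8% called by day and 3.92% by night, plk3, gadd45ga, fen1 and mdm2 were higher and tfdp1b and tk1 lower in LD by day, and fen1 and gmnn, the licensing inhibitor geminin, higher at night.

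Among the genes with no call in any comparison, ccng1, cyclin G1, a target of p53, had means of 968 ± 161 in LD and 1028 ± 157 in DD, and cdc34b 676 ± 156 and 549 ± 113. rpa1 had 454 ± 54.4 and 460 ± 60.1, and ccnt2b 406 ± 45.8 and 356 ± 87.6. The dimmest genes of the 106 were the centrosomal gene cdk5rap2, at 1.2 to 7.6 over the 14 arrays, and cdca5, ccnb1l and cdca7b. Of the 34 dim genes 23 read above 29.2 on at least 1 array. In the fit without the filter none of the 34 had a called rhythm, with limma, and 5 had an unadjusted p under 0.05. Of all 15501 probe sets of that fit, the bright ones included, 401 had a called rhythm and 2026 an unadjusted p under 0.05.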

How the data were processed

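The authors deposited MAS5 signal intensity per probe set on a linear scale. GCOS and MAS5 were used per the submitters' processing notes, with versions not given in the sources used here. Per the labels' protocols, 2 cycles of in vitro transcription amplified the RNA about 1800-fold. Each array's mean after leaving out 2% of probe sets at each end was 150.04 to 150.05. Of 15617 probe sets 115 controls were left out, as was 1 with an empty cell. Arrays have no read depth, and their number limits the precision. Dates and batches of the arrays are not given in the sources used here; a batch that followed the light condition could not be separated from it.

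Genes were named from the platform annotation, and the Entrez IDs of 105 of the 106 were found among the RefSeq genes. The members and lists were chosen with earlier results of these data known. Members were named in the text where called, among the smallest p of a comparison with no call, core genes of the cycle, at the ends of the signal range, or with probe sets of opposite sign; others are examples or near the threshold, chosen after their values were seen. Signals were tested as log2(signal + 14.9), 14.9 being the 25th percentile, without further normalisation; a fold on this scale understates changes of dim genes. limma 3.58.1 in R 4.3.3 fitted all probe sets above the filter (lmFit, eBayes with trend, Benjamini-Hochberg): a 24-h wave (cosine, sine) beside light condition, whose size cannot be below 0, and LD minus DD with time as a block. The fits were tested on simulated data. Alternatives were median centring, quantile normalisation, constants of 5 and 50, no filter, the 60th percentile, a robust prior, 1 probe set per gene, the second probe set of a gene, and leaving out arrays. Figures used matplotlib 3.10.9. No sequences or coordinates are given.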

Additional observations from a re-analysis of the deposited data

Results flagged for a closer look

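For 60 of the 106 genes, chosen by rule to be named in the text, 120 sets of 7 arrays of 1 gene and condition were examined. In 12 sets the highest or lowest array stood further from the rest than Dixon's 95% critical value allows. Chance gives about 1 in 20 sets. The 60 were chosen partly by their values, so this rate is a rough guide. Genes named in the text but not among the 60, such as cdca3, cdca8 and cdc27, were not examined. At ZT18, ccnb1 was high in LD (41.8, next 25.1) and in DD (74.0, next 42.0). At ZT2 in DD, mcm2 (103.2, next 55.4) and mcm5 (51.9, next 30.8) were high. The DD array of ZT10, which stood apart as a whole, was high for ccnd1 (294.3, next 208.6) and mcm7 (196.3, next 157.1) and low for cdkn2aipnl (214.5, next 328.7), cdkn3 (22.1, next 52.9) and pole3 (53.6, next 74.2). In LD, ccnb1l (18.7, next 7.1) and cdkn1ca (48.9, next 13.0) were high at ZT10, and cdc45 was low at ZT2b (5.1, next 21.1). ccnb1l, cdkn1ca and cdc45 were below the filter.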

How the results depend on the processing

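The 14 LD against DD calls of 72 genes became 8 of 106 with no filter and 4 of 72 without both ZT2b arrays. The calls among all probe sets went from 1915 of 9299 to 1603 of 15501 and to 943 of 9299. When single arrays were left out, the genes here had 6 to 12 calls and all probe sets 1374 to 2106. An array left out of a time other than ZT2 takes its partner's information with it, since time is a block. Without the replicate block of time the count was 12, by day 4 and by night 1, against 1669, 765 and 239 of all 9299 probe sets. ccnyl1 and cdc25b were called under all alternatives tried, cdc37l1 under all but its second probe set, and cdk2 under all but the one without both ZT2b arrays. With the second probe set in place of the first where it passed the filter, the LD against DD count was 13 and the count by night 0, and cdkn1bb reversed, to 0.095 on the log2 scale. The 4 rhythms became 2 without both ZT2b arrays and 1 in a test over 6 separate times, while those of all probe sets went from 452 to 260 and 140. Without single arrays they were 2 to 5, against 282 to 571 of all probe sets. The 3 rhythms in LD were then 2 to 4, against 155 to 598 of all probe sets. The 5 calls by day became 3 of 106 with no filter and 0 without both ZT2b arrays. Those of all probe sets went from 858 of 9299 to 574 of 15501 and to 83 of 9299. Without single arrays the calls by day were 2 to 5, against 325 to 831 of all probe sets. The 1 call by night became 0 without both ZT2b arrays, while those of all probe sets went from 272 to 15. Without single arrays it was 0 to 1, against 0 to 602 of all probe sets. Of 336 single-gene values of LD against DD, 236 kept their side of the threshold, 99 lost it and 1 reversed; for rhythms these were 85, 12 and 0 of 97. The ZT18 contrast, added after seeing the data, called 0 members in each of 4 alternatives. Median centring moved the split of all called probe sets from 932 higher and 983 lower to 1091 and 843, and that of the genes here from 7 and 7 to 9 and 6. Other causes of these shifts were not tested. Signals near the constant of 14.9 limit what can be said of the 34 dim genes.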
